A study of Mus musculus with 2 samples.

Results

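The interferon-inducible GTPases described here are 10 genes of mouse: the guanylate-binding proteins (GBPs) Gbp2, Gbp3, Gbp4, Gbp6 and Gbp7, and the immunity-related GTPases (IRGs) Irgm1, Igtp, Iigp1, Ifi47 and Tgtp1. They were listed by name out of 12395 genes, namely those with a probe set of 1 symbol plus members with only a shared one. Every probe set whose platform symbol is or includes a member was taken, 13 in all. Their values were measured in splenic CD4+ T cells from mice of the DBA/1 strain, in which immunisation with glucose-6-phosphate isomerase (GPI) is followed by arthritis, and of the C57BL/6 strain, which resists it. Both strains had been immunised with GPI and were sampled on day 7, the cells were isolated by magnetic sorting, and RNA of each strain was hybridised to 1 array. The sources used here do not give the number, sex or age of the mice behind each RNA sample, no unimmunised mice were analysed, and the genes were chosen with earlier results of these arrays known, so every value below is a description without a test.

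Interferons bind receptors that activate JAK kinases, and these phosphorylate STAT factors that, together with interferon regulatory factors (IRFs), act on promoters through the gamma-activated site (GAS) and the interferon-stimulated response element (ISRE). GBPs and IRGs are among the most strongly induced products of this pathway in mouse cells, T cells included. GBPs are large GTPases that assemble on bacteria and on the vacuoles of intracellular parasites and help caspase-11 to detect bacterial lipopolysaccharide. IRGs are smaller GTPases, of which Irgm1 and Igtp are regulators that sit on the cell's own membranes, while Iigp1, Ifi47 and Tgtp1 are effectors that load onto parasite vacuoles. In mice that lack Irgm1, CD4+ T cells die when exposed to interferon gamma.

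Promoter sequences of 7 members were searched and are shown first because the members are grouped by their inducer. Iigp1 was left out of the search, and Gbp4 and Gbp6 had no window in the sequences used. The sequences come from RefSeq, assembly GRCm38.p6, which is the C57BL/6J genome, so DBA/1 bases at these places were not used here. Each line gives 150 bases ending just before the annotated transcription start, 5′ to 3′ on the gene's strand, for the 6 members whose window held a match. Capitals mark matches to the ISRE core, written here as GAAA, any 2 bases and GAAA again, and read on both strands, so that TTTC, any 2 bases and TTTC is the same motif, and to the GAS core TTCNNNGAA, which reads the same on both strands. The Gbp7 stretch is chr3:142530186-142530335 (+), Gbp3 chr3:142559894-142560043 (+), Gbp2 chr3:142620513-142620662 (+), Irgm1 chr11:48871421-48871570 (-), Igtp chr11:58199406-58199555 (+) and Tgtp1 chr11:48992247-48992396 (-).
Gbp7: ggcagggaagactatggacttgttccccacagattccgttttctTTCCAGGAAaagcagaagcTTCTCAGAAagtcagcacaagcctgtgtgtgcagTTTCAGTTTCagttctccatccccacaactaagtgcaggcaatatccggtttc
Gbp3: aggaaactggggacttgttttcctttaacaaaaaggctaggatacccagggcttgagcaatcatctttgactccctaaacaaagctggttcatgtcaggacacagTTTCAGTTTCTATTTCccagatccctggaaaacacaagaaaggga
Gbp2: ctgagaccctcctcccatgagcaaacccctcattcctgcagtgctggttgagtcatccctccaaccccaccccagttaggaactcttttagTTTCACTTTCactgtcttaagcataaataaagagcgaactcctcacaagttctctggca
Irgm1: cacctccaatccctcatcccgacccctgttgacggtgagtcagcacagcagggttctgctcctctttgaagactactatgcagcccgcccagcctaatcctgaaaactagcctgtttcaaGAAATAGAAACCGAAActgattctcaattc
Igtp: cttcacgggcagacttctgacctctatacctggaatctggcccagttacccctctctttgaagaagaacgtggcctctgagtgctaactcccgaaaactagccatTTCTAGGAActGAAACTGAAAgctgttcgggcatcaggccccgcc
Tgtp1: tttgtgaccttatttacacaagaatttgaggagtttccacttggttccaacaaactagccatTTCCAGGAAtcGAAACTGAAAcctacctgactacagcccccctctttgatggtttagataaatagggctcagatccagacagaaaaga

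The ISRE core was present in 6 of the 7 members searched, with windows of 250 bases before and 50 after the start. Counted by window, with Gbp3 having 2 annotated starts, it was present in 6 of 8. Of all 32851 such windows of the genome, 3.44% held it. The GAS core was present in 3 of the 7 members, or 3 of their 8 windows, against 8.3% of all windows. In Igtp and Tgtp1 a GAS core was followed, 2 bases further on, by an ISRE core. In Gbp7 a pair of GAS cores lay 25 and 44 bases before the ISRE core. In Gbp3 and Irgm1 a pair of ISRE cores overlapped each other. The window of Ifi47 and the second annotated start of Gbp3 held neither string of letters. Gbp3, which read higher in DBA/1, and Gbp7, Gbp2, Irgm1, Igtp and Tgtp1, which read lower there in the probe set used, thus all carry an ISRE core in the reference genome. A match is a string of letters and no evidence of binding.

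**Figure D1:**
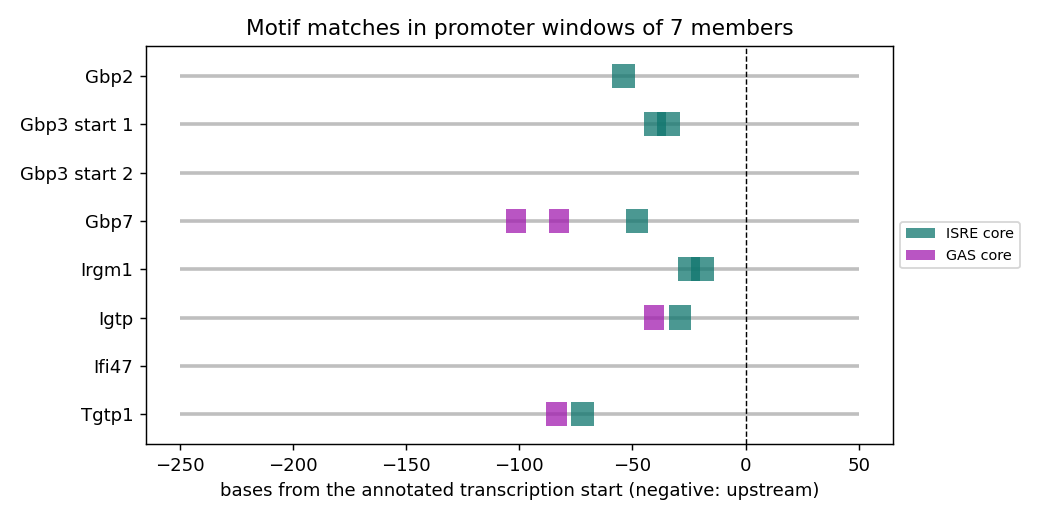
Matches to the ISRE core (green) and GAS core (purple) in the promoter windows of 7 members, by distance in bases from the annotated transcription start. The ISRE matches of the 6 searched members that have one lie within 77 bases upstream of the start, and overlapping green bars are overlapping matches.

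The values are MAS5 signals, the Affymetrix summary of a probe set's brightness, on a linear scale as deposited. Signals under an array's median, 37.6 for DBA/1 and 38.04 for C57BL/6, were set to that median, called the floor, before the log2 ratio of DBA/1 over C57BL/6 was taken. Of the 13 probe sets, 12 were above the floor on both arrays. Of the 10 genes, 9 had a probe set above the floor, and all 9 also reached the 75th percentile of signals (171 for DBA/1, 162 for C57BL/6) on at least 1 array, a minimum used below for counts. Over 2325 genes with a pair of usable probe sets, the ratios of the pair differed with an SD of 0.43 on the log2 scale, or 0.31 per probe set, which is the only error these data offer and covers neither mice nor sorting nor labelling. Over all 3920 genes at or above the minimum, members included, the median log2 ratio was 0.13 with quartiles of -0.12 and 0.38.

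Most of the GTPases read lower in DBA/1, and the GBPs spread over a far wider range than the IRGs. Of the 12 probe sets above the floor, 10 were lower and 2 higher in DBA/1. By gene, 8 of 9 were lower, where 36.5% of the 3920 genes were. All 8 lay under the lower quartile of the 3920 genes, while Gbp3 lay over the upper quartile. The 8 include Gbp2, whose 2 probe sets point in opposite directions; with the probe sets of a gene averaged, 7 of 9 were lower and 7 lay under that quartile. At least 2-fold lower were 3 of 9 members (Gbp7, Gbp6 and Iigp1), where 1.99% of the 3920 genes were, and at least 2-fold higher was 1 of 9 (Gbp3), where 3.98% were. The members were listed with these differences known, so nothing is read from the comparison of those shares.

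**Figure D2:**
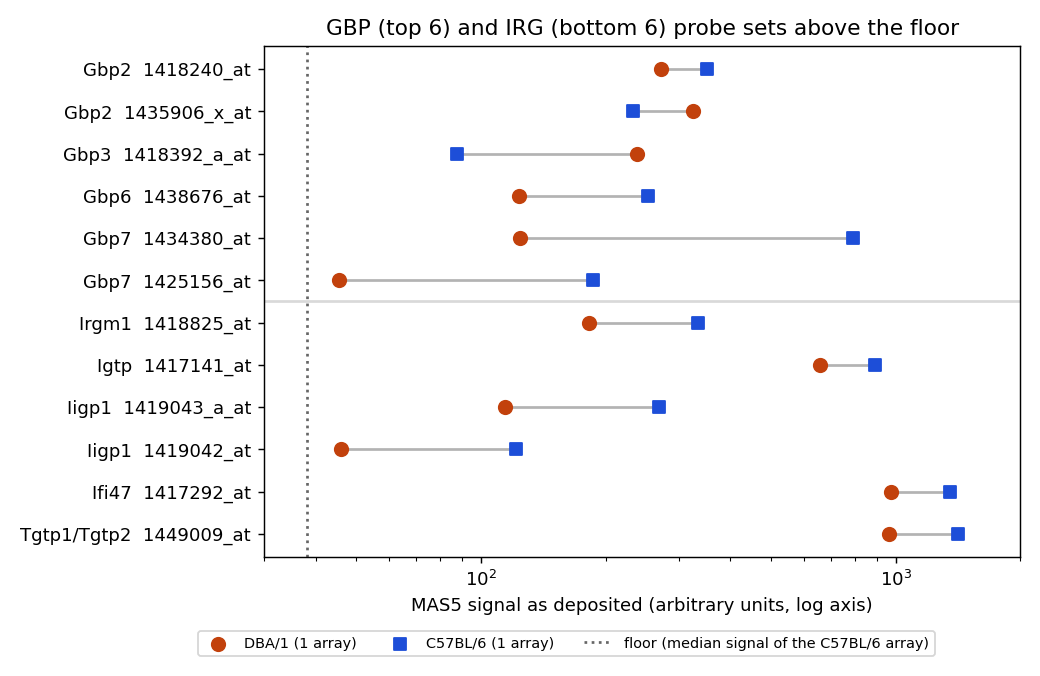
MAS5 signal of each GBP (upper block) and IRG (lower block) probe set above the floor, with the DBA/1 array as circles and the C57BL/6 array as squares on a log axis. DBA/1 lies left of C57BL/6 in 10 of the 12 lines, and Gbp3 and the second probe set of Gbp2 are the exceptions.

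Among the GBPs, Gbp7 had the lowest ratio. GBP7 has been linked in mouse macrophages to assembly of the phagocyte oxidase on vacuoles. Its brighter probe set, 1434380_at, read 124 in DBA/1 and 790 in C57BL/6, a log2 ratio of -2.67, or 6.35-fold higher in C57BL/6. Its other probe set, 1425156_at, read 45.5 in DBA/1, close to the floor, and 187 in C57BL/6, a log2 ratio of -2.04. Both probe sets thus placed the DBA/1 signal far under that of C57BL/6. Their ratios differed from each other by 0.63, more than the SD of 0.43 between probe sets of the same gene. Of the 2325 genes with a pair of probe sets, 11.2% had a larger difference between theirs. Among the 3920 genes, 9 had a lower ratio than Gbp7.

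Gbp3 differed in the opposite direction. Its probe set 1418392_a_at read 238 in DBA/1 and 87.7 in C57BL/6, a log2 ratio of 1.44, or 2.71-fold higher in DBA/1. Among the 3920 genes, 67 had a higher ratio. Gbp3 has no second probe set, and the suffix of this probe set marks probes shared by alternative transcripts of 1 gene. In the RefSeq gene table Gbp7 and Gbp3 are next to each other among the GBP genes of chromosome 3, in the order Gbp5, Gbp7, Gbp3, Gbp2b and Gbp2, and the log2 ratios of these neighbours were 4.11 apart.

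Gbp2, a GBP that mouse cells need to restrict Toxoplasma, gave no settled direction. Probe set 1418240_at read 272 in DBA/1 and 350.5 in C57BL/6, a log2 ratio of -0.37. Probe set 1435906_x_at read 325 in DBA/1 and 233 in C57BL/6, a log2 ratio of 0.48. The 2 ratios lie on opposite sides of 0 and differ by 0.85, and 5.38% of the 2325 genes with a pair of probe sets had a larger difference between theirs. The suffix of the second probe set marks probes that may hybridise to other genes, and GBPs are close paralogues. Probe sequences were not used here, so which transcripts each probe set detects, and whether DBA/1 carries other bases there, was not tested.

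Gbp6 lies in the other GBP cluster, on chromosome 5, with Gbp8, Gbp9, Gbp4 and Gbp10. Its product is recruited to Toxoplasma vacuoles in mouse cells. Probe set 1438676_at read 124 in DBA/1 and 253 in C57BL/6, a log2 ratio of -1.03, or 2.05-fold higher in C57BL/6, which is only just past 2-fold. Gbp4 is represented by 1 probe set, 1421104_at, annotated to both Gbp8 and Gbp4 and designed on a transcript that RefSeq assigns to Gbp4. It read 0.522 in DBA/1 and 0.472 in C57BL/6, far under the floor on both arrays, so no ratio was taken. The probe set of Gbp8 alone, a relative that is not among the 10 members, read 193 in DBA/1 and 674 in C57BL/6, or 3.49-fold higher in C57BL/6. Gbp2b, the gene formerly called Gbp1, read 5.31 in DBA/1 and 22.99 in C57BL/6, under the floor on both arrays.

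The IRGs all read lower in DBA/1, by 1.35-fold to 2.36-fold, and Iigp1 was the farthest from parity. Of the regulators, Irgm1 (1418825_at) read 183 in DBA/1 and 335 in C57BL/6, a log2 ratio of -0.87. Igtp (1417141_at), also called Irgm3, read 658 in DBA/1 and 890 in C57BL/6, a log2 ratio of -0.43. Irgm2, a regulator outside the 10 members, read 146 in DBA/1 and 214 in C57BL/6, a log2 ratio of -0.55. The 3 regulators were therefore 1.83-fold, 1.35-fold and 1.46-fold higher in C57BL/6, with none at 2-fold.

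Of the effectors, Iigp1 (also called Irga6) had the lowest ratio and was the IRG past 2-fold. Its probe set 1419043_a_at read 114 in DBA/1 and 269 in C57BL/6, a log2 ratio of -1.24, or 2.36-fold higher in C57BL/6. Its second probe set, 1419042_at, read 45.96 in DBA/1 and 121 in C57BL/6, a log2 ratio of -1.40. The pair differed by 0.16, less than the SD of 0.43 between probe sets of the same gene. Ifi47 (1417292_at, also called Irgd) read 975 in DBA/1 and 1353 in C57BL/6, a log2 ratio of -0.47. Tgtp1, named as a T cell GTPase, shares its probe set 1449009_at with its near-copy Tgtp2, so the signal cannot be divided between them. That probe set read 963 in DBA/1 and 1414 in C57BL/6, a log2 ratio of -0.55.

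Set against each other, the ratios of the GBPs spread over a wider range than those of the IRGs, and the order of the family medians depended on which GBPs and probe sets were taken. The median log2 ratio was -0.70 over 4 GBPs and -0.55 over 5 IRGs, and the IRG median minus the GBP median was 0.15. It was -0.065 when the probe sets of a gene were averaged and 0.48 when probe sets with the suffixes _a_at, _s_at and _x_at, and with them Gbp3, were left out. The GBP median was -1.03 without Gbp3, and also -1.03 with Gbp8 added. The GBP ratios ran from -2.67 to 1.44, a range of 4.11 with an SD between genes of 1.70. The IRG ratios ran from -1.24 to -0.43, a range of 0.80 with an SD between genes of 0.34. Without Gbp3 the GBP range was 2.30. The IRG genes measured lie on chromosome 11, apart from Iigp1 on chromosome 18, and the 4 members on chromosome 11 ran from -0.87 to -0.43.

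**Figure D3:**
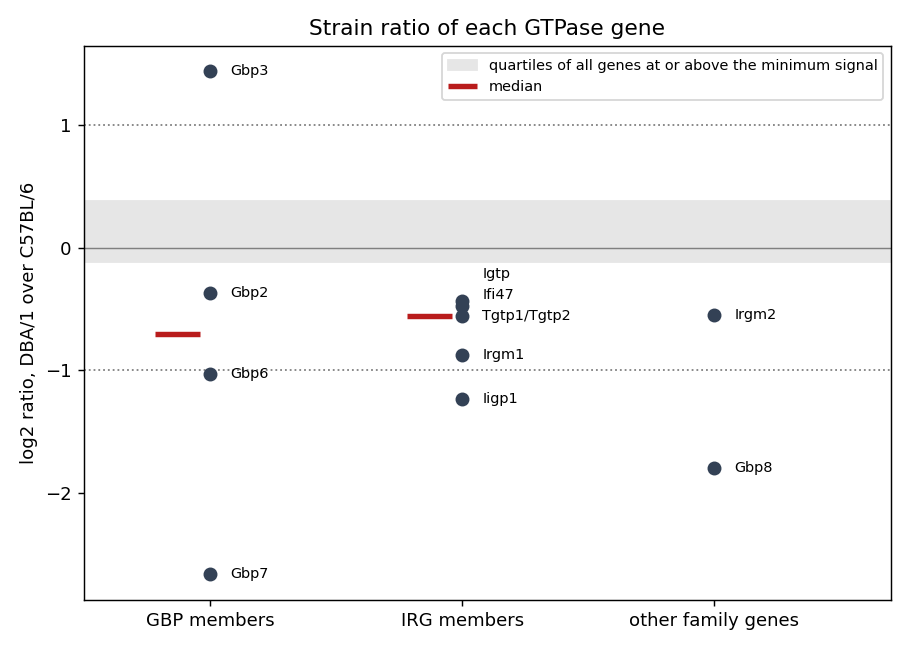
Log2 ratio of DBA/1 over C57BL/6 for each measured gene of the GBP and IRG families, 1 probe set a gene, with the median of each family as a red bar, 2-fold as dotted lines and the quartiles of 3920 genes as a grey band. The GBPs spread from -2.67 to 1.44, and the 5 IRG members lie between -1.24 and -0.43.

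The genes that produce and carry the interferon gamma signal differed in both directions, with a list median near 0, and interferon gamma itself had the largest difference. Ifng read 66.01 in DBA/1 and 173 in C57BL/6, or 2.62-fold higher in C57BL/6. The receptor chains read 342 in DBA/1 and 345 in C57BL/6 for Ifngr1, and 97.8 in DBA/1 and 83.7 in C57BL/6 for Ifngr2. The kinase Jak1 had a log2 ratio of -0.13, and Jak2 had one of 0.42, with its second probe set at 0.34. Stat2 lay at -0.20, Irf1 at -0.18 and Irf8 at -0.33. Irf9, the DNA-binding subunit of the complex that recognises the ISRE, read 292 in DBA/1 and 442 in C57BL/6, a log2 ratio of -0.60. Socs1, a feedback inhibitor of JAK kinases, read 42.1 in DBA/1 and 44.1 in C57BL/6, close to the floor on both arrays.

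Over 23 usable genes of that pathway the median log2 ratio was -0.065, with 9 above 0 and 14 below, beside 0.10 over all 6936 genes above the floor on at least 1 array. Only Ifng was at least 2-fold lower and none was at least 2-fold higher, where 1.9% and 3.84% of the 6936 genes were. The next largest ratios were those of Tbx21, the T helper 1 transcription factor, at -0.98 (1.97-fold), the interleukin 18 receptor chain Il18r1 at 0.95 (1.93-fold), and Irf9 (1.51-fold). Other interferon gamma targets also went both ways, with a median of 0.063 over 23 genes. At least 2-fold higher in DBA/1 were 2, and 1 was at least 2-fold lower. Of these 23, 13 were above 0 and 10 below, where 60.6% of the 6936 genes were above 0. The sign of the list median turned under all 3 rescalings of the arrays, where it lay between -0.073 and -0.022. In this list Casp4, which encodes caspase-11, read 271 in DBA/1 and 96.1 in C57BL/6, or 2.82-fold higher in DBA/1. The MHC class II transactivator Ciita was 2.81-fold higher in DBA/1 and Casp1 1.90-fold, whereas Tap1, which carries peptides for MHC class I, was lower in DBA/1 (log2 ratio -1.14). Casp4 and Gbp3 thus both read higher in DBA/1, whereas Gbp7 and Gbp6 read lower there, and a link between these genes was not tested.

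The list of type I interferon pathway and target genes had a median near that of the GTPases. Over 28 genes it was -0.53, with 24 below 0, 8 at least 2-fold lower in DBA/1 and none at least 2-fold higher. Of all 6936 genes, 39.4% were below 0, 1.9% at least 2-fold lower and 3.84% at least 2-fold higher. The list median lay between -0.61 and -0.44 under the 7 alternatives tried. The 4 genes with the largest ratios were all lower in DBA/1. They were Trim30a (-2.03, with a second probe set at -0.45), Rsad2 (-1.39), the deubiquitinase Usp18 (-1.30) and Oasl2, an oligoadenylate synthetase-like protein, whose DBA/1 signal lay under the floor, so that C57BL/6 was higher by at least 2.37-fold. The receptor chain genes Ifnar1 and Ifnar2, named after their values were seen, lay at 0.028 and 0.82.

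Factors that place GBPs and IRGs on vacuoles were not lower in DBA/1 as a list. The autophagy conjugation machinery and ubiquitin factors had a median of 0.22 over 16 genes, which was 0.078 after lowess. Of these 16, 11 were above 0. Of all 6936 genes, whose median was 0.10, 60.6% were above 0. Gabarapl1, of the ATG8 family to which the machinery attaches lipid, read 82.8 in DBA/1 and 44.1 in C57BL/6, 1.88-fold higher in DBA/1. The activating enzyme Atg7 was under the floor in C57BL/6 and at least 1.82-fold higher in DBA/1. Map1lc3b lay at 0.59 in the probe set used, but its other 3 probe sets lay between -0.34 and 0.017. Trim21, an intracellular Fc receptor and ubiquitin ligase, was the only gene of this list past 2-fold (-1.09, with a second probe set at -0.32). Large GTPases of related families had a median of 0.16 over 6 genes with none past 2-fold, a sign that turned with the floor moved to percentile 25 or 60 (-0.070 in both). In that list Mx1 lay at -0.39, Ehd4 at 0.74 and Ehd1 at 0.41, with other Ehd1 probe sets above the floor at 0.89 and -0.035. Atl3, under the floor in C57BL/6, was at least 1.30-fold higher in DBA/1.

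Markers of other spleen cells differed between the same arrays, and their part in the GTPase values was not tested. The defining genes of CD4+ T cells were present on both arrays. The signal of Cd4 was 913 in DBA/1, against 857 in C57BL/6. The 7 usable markers had a median of -0.069, with Cd40lg under the floor on both arrays. CD8 T cell and NK cell markers summed to 1010 in DBA/1 and 2300 in C57BL/6 over 12 genes, with 9 of 10 usable genes lower in DBA/1 and Ncr1 and Gzma under the floor on both arrays. Their median of -1.01 has the sign of the IRG and GBP medians. Markers of 4 other cell types went the other way. Neutrophil markers summed to 37366 in DBA/1 and 11617 in C57BL/6 over 13 genes, with 12 of 12 usable genes higher in DBA/1 and Cxcr2 under the floor on both. The sums were 4152 in DBA/1 and 2263 in C57BL/6 for 14 monocyte and macrophage markers, with 12 of 13 usable genes higher in DBA/1 and Marco under the floor on both. For 11 B cell markers they were 5057 in DBA/1 and 4152 in C57BL/6, with 8 of 9 usable genes higher in DBA/1 and Pax5 and Ebf1 under the floor on both. Most of both B cell sums came from Ighm, at 3304 in DBA/1 and 3326 in C57BL/6. The median log2 ratio of the 9 usable B cell markers was 1.09. For 8 dendritic cell markers the sums were 4551 in DBA/1 and 2324 in C57BL/6, with 5 of 7 usable genes higher in DBA/1 and Xcr1 under the floor on both. In RNA of a mixed sample, fewer cells of a type and less RNA per cell cannot be told apart.

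**Figure D4:**
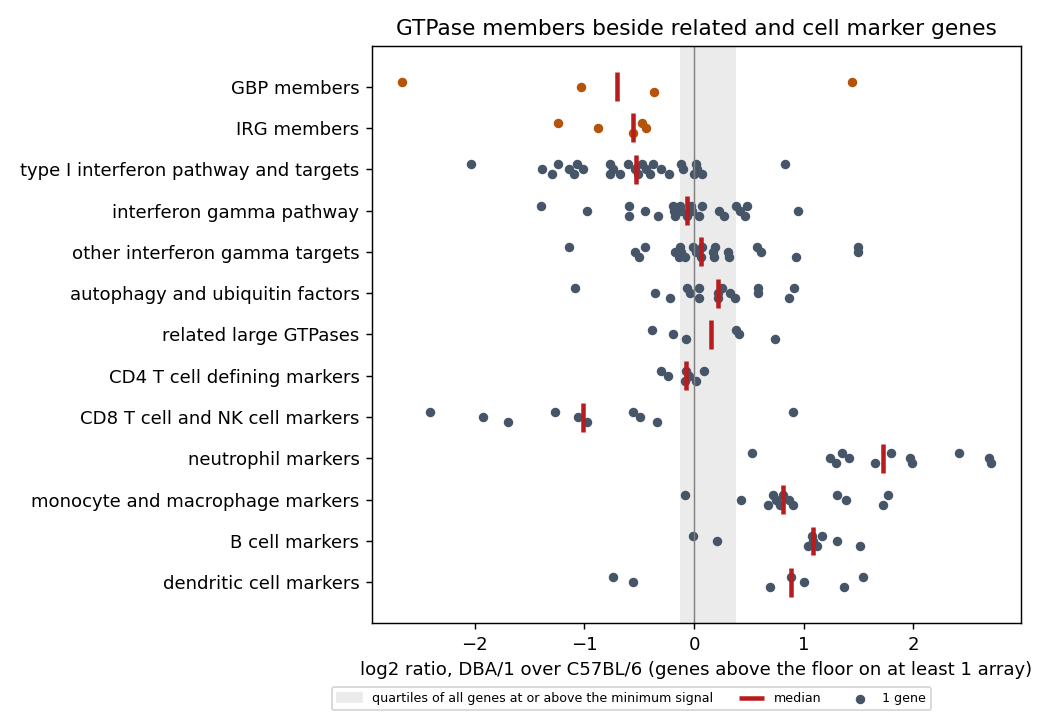
Log2 ratio of DBA/1 over C57BL/6 for every gene above the floor on at least 1 array in the GTPase families, the related interferon lists and the cell marker lists, with medians as red bars. The GBP (-0.70), IRG (-0.55) and type I interferon (-0.53) medians lie left of 0, the interferon gamma pathway is near 0 (-0.065), CD8 and NK markers lie left (-1.01) and neutrophil markers right (1.72).

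Rescaling the arrays to a common median, which removed an offset of 0.085, left the direction of each of the 9 measured members as it was, and so did quantile normalization and lowess. The ratio of Gbp7 stayed between -2.77 and -2.35 and that of Iigp1 between -1.40 and -1.04 over 10 alternatives, and that of Gbp3 between 1.17 and 1.44 over the 9 that measure it. Gbp6 lay between -1.12 and -0.87, and it was under 2-fold only with 32 added to each signal.

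**Figure D5:**
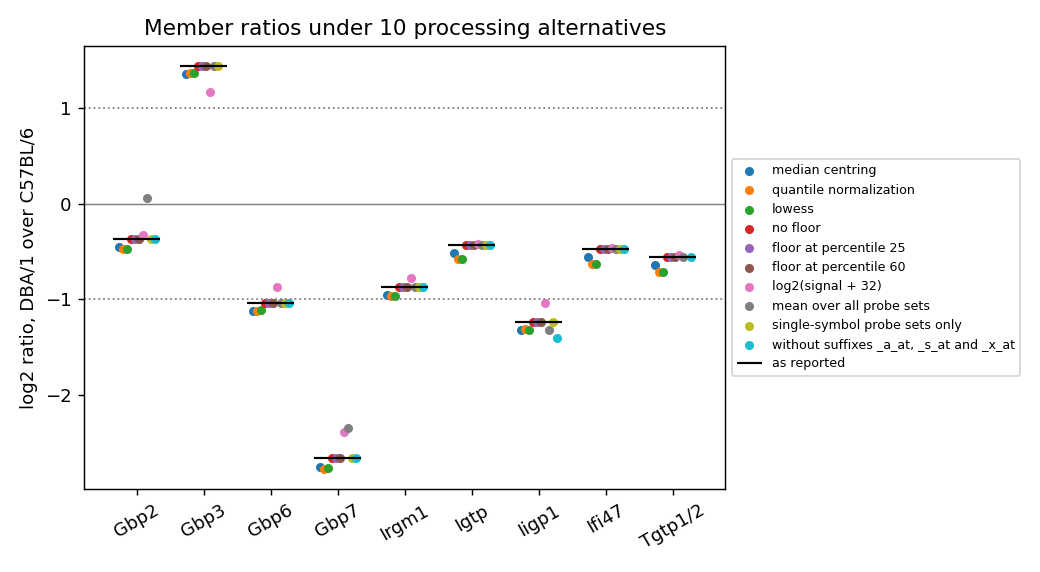
Log2 ratio of DBA/1 over C57BL/6 of each measured member under 10 processing alternatives (coloured points) beside the value reported (black line), with 2-fold as dotted lines. Gbp2 crosses 0 when its probe sets are averaged (0.055), Gbp6 crosses the 2-fold line once, and the other members keep their sign and their side of 2-fold.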

How the data were processed

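RNA of splenic CD4+ T cells was measured on 2 arrays, 1 for DBA/1 and 1 for C57BL/6, assigned by their strain labels. Per the labels' protocols, cDNA made from 3 µg of total RNA by oligo(dT)-T7 priming, which favours the 3′ end of transcripts, was transcribed into biotinylated cRNA. The authors deposited probe set intensities on a linear scale; MAS5 is named in the submitters' processing notes, and the sources used here give neither its version nor a scaling target. The table holds 22690 probe sets, 64 of them controls; the platform annotation gave 1 symbol for 20380, several for 691 and none for 1555, and the genome build of the array design is not stated there. Entrez identifiers of the GTPase probe sets matched RefSeq symbols (GRCm38.p6).

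Each gene was represented by its probe set with 1 symbol and the highest mean log2 signal, and Gbp4 and Tgtp1 by a shared probe set. The floor (percentile 50), the minimum (percentile 75) and 2-fold were the thresholds. Members and gene lists were chosen with earlier results of these data known. Named genes were all members and measured relatives, the 4 largest absolute ratios of each related list, and chosen pathway genes. Sequence motifs were searched in RefSeq promoter windows, with Iigp1 left out of the members searched. The ratio calculation was tested on simulated data. Python 3.11.15, pandas 2.3.3 and statsmodels 0.14.6 (lowess, span 0.3) were used. The number of arrays limits the precision.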

Additional observations from a re-analysis of the deposited data

How the results depend on the processing

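The family medians, the counts past 2-fold and 9 gene ratios were recomputed under 10 alternatives fixed with the design, and 5 list medians under 7 that were chosen after seeing the data. Of 88 single-gene values, 86 moved by less than the probe set error and 2 by more, both when all probe sets of a gene were averaged, which set Gbp2 at 0.055 and Gbp7 at -2.35. Leaving out probe sets with the suffixes _a_at, _s_at and _x_at removed Gbp3, so that the GBP median was -1.03, the IRG median minus the GBP median was 0.48, and 0 members were at least 2-fold higher in DBA/1. Averaging probe sets turned the sign of that difference (-0.065). The IRG median lay between -0.71 and -0.54, and 2 or 3 members were at least 2-fold lower in DBA/1 throughout. No paired analysis was possible because each strain has 1 array. Signals near the floor, as for 1 probe set each of Gbp7 and Iigp1 in DBA/1, limit the size of their ratios, and Gbp4 could not be measured.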
